A study of Mus musculus with 8 samples.

Results

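The Hox cluster genes are the protein-coding genes named Hoxa, Hoxb, Hoxc or Hoxd with a number, and 39 of them were in the count table of these tumors. They were chosen by name and by the biotype protein_coding, and they filled 40 of the table's 54532 rows, since Hoxd4 had 2 rows under different Ensembl identifiers. The table held 22046 protein-coding genes in all. The number in a Hox name is the paralogue group, counted along each cluster from the anterior end (1) to the posterior end (13).

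The tumors grew from 4T1-FLuc cells, a mouse triple-negative breast cancer line carrying firefly luciferase, placed under the skin of female BALB/cJ mice at 6 weeks of age. The 4 control mice received saline. The other 4 mice received mAb-DXd/IMQ, a humanized antibody against CD276 that carries the TOP1 inhibitor DXd and the TLR7/8 agonist IMQ, in 5 intravenous courses of 16 mg/kg, 4 days apart. Tumors were taken at the study's endpoint, and each library came from the tumor of a different mouse. The question asked of the data was which positions of the Hox clusters were expressed in these tumors, and whether their levels differed between saline and mAb-DXd/IMQ.

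Hox genes encode homeodomain transcription factors, and their order within a cluster follows the order in which they are expressed along the head-to-tail axis of the embryo. Adult tissues and the cell lines made from them keep part of this pattern, so the set of Hox genes that a cell expresses is often read as a record of its position of origin. In the mammary gland Hoxa9, Hoxb9 and Hoxd9 act together in development.

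Saline tumors 1 to 4 had 49398150, 45019927, 56388627 and 69582375 counts. The mAb-DXd/IMQ tumors 1 to 4 had 51625237, 46196237, 42965317 and 34591912 counts. A count of 0 in a tumor allowed up to 3 counts, or 0.0431 to 0.0867 CPM, counts scaled to library size, and these floors cover counting error only. Hox genes together took 0.0294% of all counts in mAb-DXd/IMQ tumor 1, the lowest share, and 0.0362% in saline tumor 1, the highest. Levels are given as TPM, counts divided by gene length and scaled to the same total in every tumor, which allows genes of different length to be compared.

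The label of a breast epithelial tumor was checked against marker genes. The most abundant of 12 epithelial markers was Krt18, a keratin of simple epithelium, at a mean of 1325 TPM over the 8 tumors. Krt8, its partner, had 942 TPM, the adhesion molecule Epcam 604 TPM and E-cadherin (Cdh1) 233 TPM. Cldn3, a tight junction protein, was close to absent at 18 counts over all tumors. Of the receptors that define the triple-negative label, the estrogen receptor gene Esr1 had a mean of 3.60 TPM, the progesterone receptor gene Pgr 0.157 TPM, and Erbb2, the mouse gene of HER2, 55.1 TPM. Luciferase had no row in the count table.

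Of the 39 Hox genes, 19 had a mean of 1 TPM or more over the 8 tumors, a share of 48.7% beside 57.8% of all protein-coding genes. They included most Hoxa genes, 4 of 10 Hoxb genes, 4 of 9 Hoxc genes and 2 of 9 Hoxd genes. Those outside the Hoxa cluster were Hoxb4, Hoxb6, Hoxb7, Hoxb8, Hoxc4, Hoxc6, Hoxc8, Hoxc9, Hoxd8 and Hoxd9. A row stayed in the treatment test when it passed edgeR's filterByExpr with default settings, which 26 of the 40 rows did. Of the 14 left out, 8 had no count in any tumor. These were Hoxa11, Hoxb13, Hoxc11, Hoxc12, Hoxd11, Hoxd12, Hoxd13 and the second row of Hoxd4 (ENSMUSG00000101174). The other 6 were Hoxb1 with 8 counts over all tumors, Hoxc10 with 87, Hoxc13 with 16, Hoxd1 with 4, Hoxd3 with 49 and the first row of Hoxd4 (ENSMUSG00000115956) with 30.

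**Figure D1:**
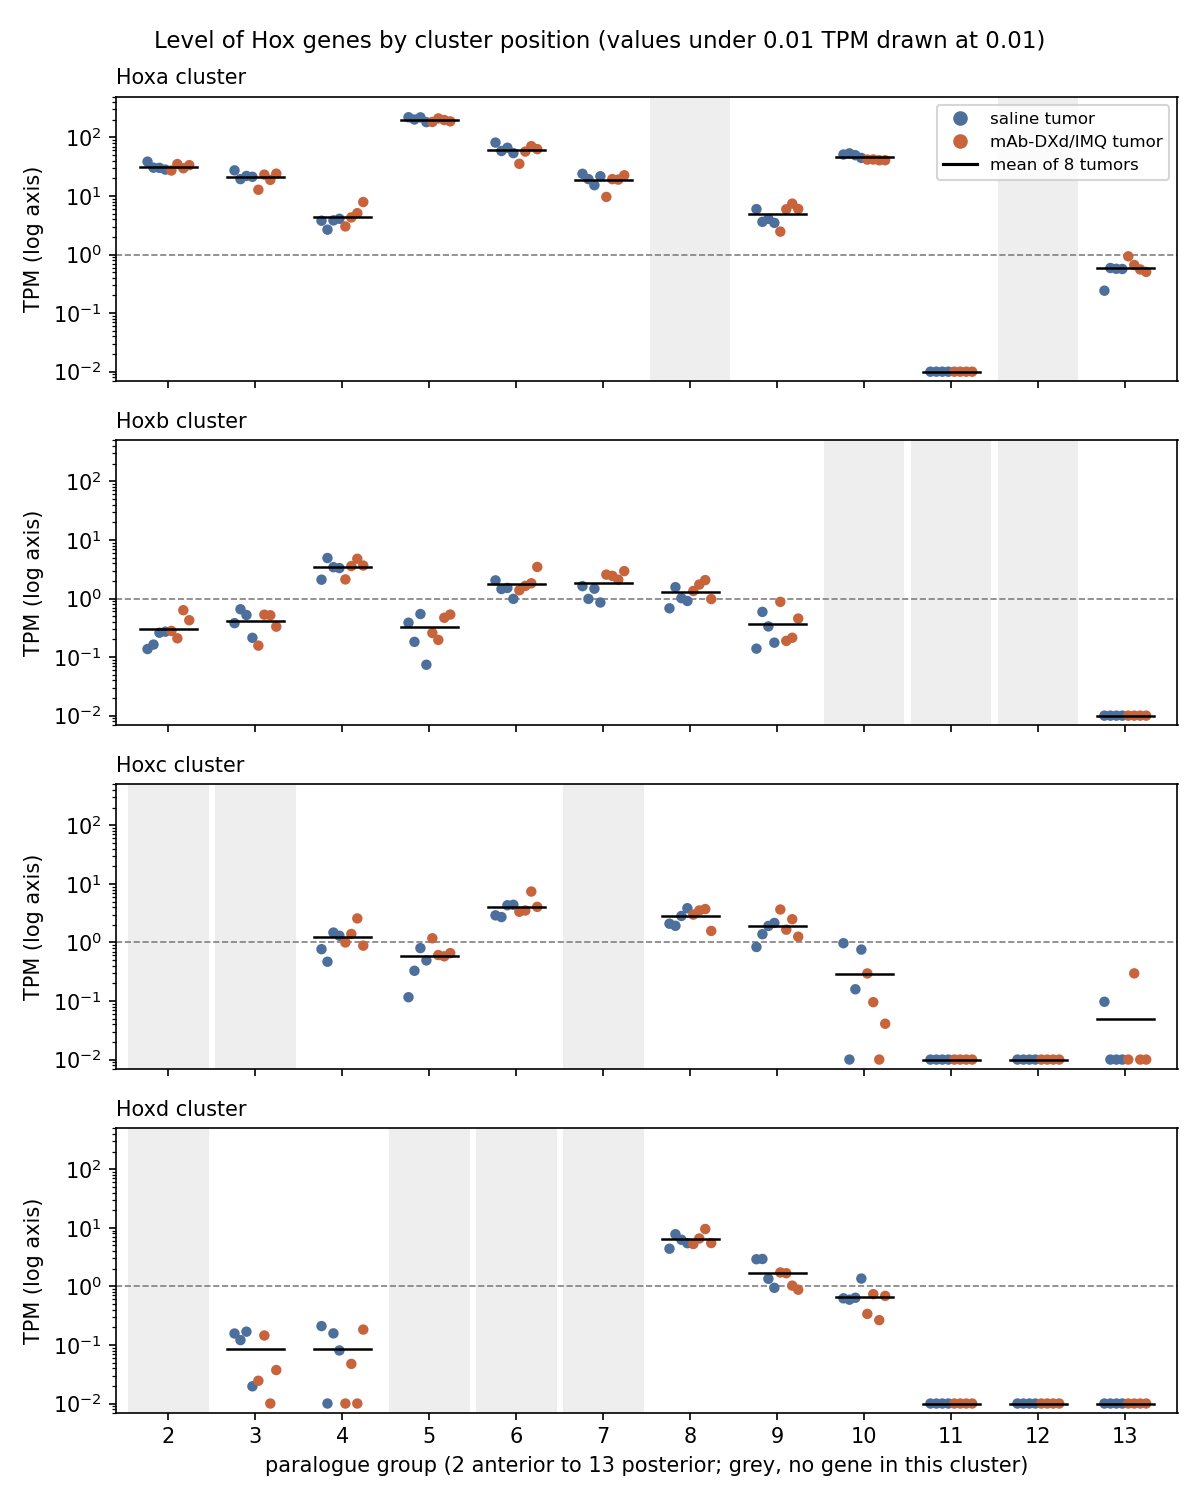
TPM on a log axis of the Hox genes in 4 saline tumors (blue) and 4 mAb-DXd/IMQ tumors (orange), by paralogue group from 2 to 13, with the mean of the 8 tumors as a bar. Grey columns are positions with no gene in that cluster, the dashed line is 1 TPM, and values under 0.01 TPM are drawn at 0.01.

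The plot of levels by position shows each plotted Hoxa gene from group 2 to group 10 above the same group of the other clusters in mean TPM, and a stretch without counts at groups 11 and 12 in all clusters. The smallest gap was at group 4, where Hoxa4 had a mean of 4.33 TPM and Hoxb4 of 3.48 TPM. The summed TPM of the Hoxa genes was 412 ± 39.2 in the saline group and 383 ± 38.1 in the mAb-DXd/IMQ group (mean ± SD, n = 4 each). Hoxb genes summed to 8.48 ± 1.69 and 11.2 ± 1.75 TPM in the same groups of tumors. Hoxc genes summed to 9.76 ± 2.93 and 12.2 ± 3.47 TPM. Hoxd genes summed to 9.04 ± 1.62 and 8.71 ± 1.70 TPM. The Hoxa cluster therefore held 90.9% of all Hox TPM in the tumor with the lowest share, mAb-DXd/IMQ tumor 3, and 95.1% in the tumor with the highest, saline tumor 1. By class, the central genes of groups 4 to 8 summed to 317 ± 28.0 TPM in saline tumors and 301 ± 33.3 TPM in mAb-DXd/IMQ tumors. The anterior genes of groups 1 to 3 summed to 62.7 ± 7.62 and 61.3 ± 8.48 TPM, and the posterior genes of groups 9 to 13 to 59.7 ± 4.29 and 52.2 ± 1.13 TPM. Group 5 alone held 44.6% to 52.2% of all Hox TPM in the 8 tumors. Group 6 held 11.3% to 18.2%, group 10 held 9.29% to 12.6% and group 2 held 6.80% to 8.06%. Groups 3 and 7 each held between 3.44% and 6.02%, groups 4, 8 and 9 each between 1.41% and 3.47%, and group 13 at most 0.263%.

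The highest Hox gene was Hoxa5 (ENSMUSG00000038253), a central member on the minus strand of chr6:52201754-52204587 in GRCm38. Hoxa5 measured 221, 202, 220 and 182.5 TPM in saline tumors 1 to 4 and 184, 211, 198 and 188 TPM in mAb-DXd/IMQ tumors 1 to 4. Saline tumor 4 was lowest and saline tumor 1 highest, and the groups overlapped. Only 2.68% of protein-coding genes had a higher mean TPM. Its coefficient of variation over the 8 tumors was 7.77%, the smallest of all Hox genes at 1 TPM or more, beside 1.23% from counting alone.

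Hoxa6 and Hoxa10 followed. Hoxa6, the next gene upstream in the cluster, measured 81.7, 58.6, 66.6 and 54.0 TPM in saline tumors and 35.4, 57.4, 71.1 and 63.2 TPM in mAb-DXd/IMQ tumors. It was lowest in mAb-DXd/IMQ tumor 1 and highest in saline tumor 1, with overlapping groups. Hoxa10, a posterior gene with known roles in the uterus and the limb, measured 51.1, 53.5, 49.7 and 44.6 TPM in saline tumors and 41.8, 42.0, 40.8 and 40.8 TPM in mAb-DXd/IMQ tumors. All 4 mAb-DXd/IMQ tumors lay below all saline tumors in TPM. On the scale used in the test, CPM with TMM library factors, the groups overlapped, since mAb-DXd/IMQ tumor 1 had 55.0 CPM and saline tumor 4 had 51.8 CPM. Hoxa6 lay above Hoxa10 in 7 of 8 tumors, the exception being mAb-DXd/IMQ tumor 1, and through that tumor their ranges overlapped.

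Next in mean level came Hoxa2 with 31.7 ± 3.84 TPM (SD, n = 8), Hoxa3 with 21.1 ± 4.32 TPM and Hoxa7 with 18.9 ± 4.57 TPM. Hoxa2 lay above Hoxa3 in each of the 8 tumors, although the highest Hoxa3 value, 27.4 TPM in saline tumor 1, reached the lowest Hoxa2 value, 27.2 TPM in mAb-DXd/IMQ tumor 1. The ranges of Hoxa3 and Hoxa7 overlapped over most of their length. Hoxa9 had a mean of 4.87 ± 1.69 TPM and Hoxa4 of 4.33 ± 1.62 TPM, also with overlapping ranges. The levels did not follow the order of the genes, since Hoxa4, between Hoxa3 and Hoxa5, was the lowest of the Hoxa genes at 1 TPM or more. Hoxa9, between Hoxa7 and Hoxa10, was the next lowest.

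The expressed stretch ended between Hoxa10 and Hoxa11. Hoxa11 (ENSMUSG00000038210, minus strand of chr6:52242106-52245810), which patterns the forearm and the reproductive tract, had 0 counts in all 8 tumors, while Hoxa10 beside it had 20898 counts. The gap did not reach the end of the cluster, because Hoxa13 had 203 counts and a mean of 0.579 TPM, from 0.242 TPM in saline tumor 1 to 0.934 TPM in mAb-DXd/IMQ tumor 1. Paralogue groups 11 and 12 had no count in any cluster, and in group 13 only Hoxa13 and Hoxc13 had counts.

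The promoter windows of the genes that carry this pattern are shown here, Hoxa5 as the highest gene and Hoxa10 and Hoxa11 as the genes on either side of the boundary. Each holds the 250 bases before a start site in GRCm38.p6 from RefSeq, written 5′ to 3′ along the minus strand of chromosome 6, with every CG in capitals. The Hoxa5 window is chr6:52204588-52204837, the outer Hoxa10 start chr6:52240855-52241104, the inner Hoxa10 start chr6:52234940-52235189 and the Hoxa11 window chr6:52245811-52246060.

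Hoxa5: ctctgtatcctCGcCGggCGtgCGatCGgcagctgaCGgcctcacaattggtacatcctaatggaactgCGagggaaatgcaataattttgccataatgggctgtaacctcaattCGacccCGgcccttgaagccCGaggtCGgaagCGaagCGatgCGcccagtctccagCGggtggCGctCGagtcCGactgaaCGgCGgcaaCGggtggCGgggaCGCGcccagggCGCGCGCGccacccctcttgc

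Hoxa10 outer start: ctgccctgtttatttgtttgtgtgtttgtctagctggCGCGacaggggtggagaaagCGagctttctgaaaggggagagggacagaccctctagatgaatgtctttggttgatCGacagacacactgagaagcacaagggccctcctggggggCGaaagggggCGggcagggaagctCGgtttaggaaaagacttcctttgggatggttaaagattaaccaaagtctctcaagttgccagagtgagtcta

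Hoxa10 inner start: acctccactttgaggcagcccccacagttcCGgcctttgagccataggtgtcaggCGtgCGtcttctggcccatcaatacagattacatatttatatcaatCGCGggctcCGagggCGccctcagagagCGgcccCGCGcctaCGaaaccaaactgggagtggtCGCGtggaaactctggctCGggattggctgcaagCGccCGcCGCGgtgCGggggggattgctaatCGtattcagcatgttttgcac

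Hoxa11: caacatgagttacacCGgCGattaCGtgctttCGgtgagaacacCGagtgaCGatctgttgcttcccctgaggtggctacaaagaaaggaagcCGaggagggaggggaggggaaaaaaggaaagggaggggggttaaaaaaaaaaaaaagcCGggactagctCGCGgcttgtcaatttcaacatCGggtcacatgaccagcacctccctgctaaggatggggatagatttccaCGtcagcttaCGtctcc

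The Hoxa5 window held 28 CG pairs, and 7.61% of all 32851 windows in the RefSeq table had as many or more. It lay in introns of Hoxa3 and Gm28308 on the same strand and in Hoxaas3 on the opposite strand, and it touched no exon. The outer Hoxa10 window held 7 CG pairs, reached by 46.3% of all windows, and no annotated gene overlapped it. The inner Hoxa10 window, in an intron of Hoxa10, held 20 CG pairs, reached by 18.0% of all windows. The window of Hoxa11, the gene without counts, held 13, reached by 31.5%, and it overlapped exons of Hoxa11os and Gm28032 on the opposite strand.

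The table matched 22 of the 39 Hox genes, with 24 windows. The number of CG pairs in a Hox window ran from 2 to 35 with a median of 12.5, beside a median of 6 over all windows. It did not separate members by level. The 13 windows of genes at 1 TPM or more had a median of 12 CG pairs, the 6 windows of genes with counts but under 1 TPM a median of 16, and the 5 windows of genes with no counts a median of 13. The letters TATAAA, searched on both strands, were in 4 of 24 Hox windows and in 12.4% of all windows. CCAAT, searched on both strands, was in 14 of 24 Hox windows and in 33.9% of all windows. TGATTNAT, letters bound by Pbx-Hox pairs, was on either strand of 2 Hox windows and of 2.83% of all windows. Matches of different motifs may share bases. In the printed windows, CCAAT stood on the reverse strand of Hoxa5 and of the inner Hoxa10 start, TATAAA on the reverse strand of the inner Hoxa10 start, and none of the 3 in the other windows.

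The Hoxb cluster lies on chr11:96194316-96368256, and its highest gene was Hoxb4, known for its role in blood stem cells. Hoxb4 measured 2.10, 4.91, 3.42 and 3.31 TPM in saline tumors and 2.12, 3.58, 4.77 and 3.65 TPM in mAb-DXd/IMQ tumors. Tumor 1 was the lowest of each group, and the groups covered nearly the same range. Hoxb7, which has been studied as a growth regulator in breast cancer, measured 1.63, 0.985, 1.47 and 0.854 TPM in saline tumors and 2.56, 2.44, 2.09 and 2.93 TPM in mAb-DXd/IMQ tumors. It was the only tested Hox gene whose groups did not overlap on the scale of the test, with 24 to 45 counts in saline tumors and 47 to 77 counts in mAb-DXd/IMQ tumors. Hoxb6, the neighbor of Hoxb7, measured 2.04, 1.45, 1.52 and 0.986 TPM in saline tumors and 1.38, 1.64, 1.82 and 3.46 TPM in mAb-DXd/IMQ tumors. Only mAb-DXd/IMQ tumor 4 lay above the saline range. Hoxb8 was the remaining Hoxb gene above 1 TPM, at a mean of 1.29 ± 0.472 TPM (SD, n = 8). Hoxb2, an anterior gene of the hindbrain, was among the members with the smallest p-values and measured 0.137, 0.163, 0.260 and 0.272 TPM in saline tumors and 0.279, 0.209, 0.631 and 0.425 TPM in mAb-DXd/IMQ tumors. Its groups overlapped at mAb-DXd/IMQ tumor 2. Hoxb3, Hoxb5 and Hoxb9 had means of 0.413, 0.330 and 0.372 TPM.

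The Hoxc cluster lies on chr15:102921103-103036852. Hoxc6, a gene of the thoracic region and of the mammary gland, was its highest member and measured 2.90, 2.71, 4.32 and 4.40 TPM in saline tumors and 3.34, 3.51, 7.40 and 4.05 TPM in mAb-DXd/IMQ tumors. Only mAb-DXd/IMQ tumor 3 stood above the saline range. Hoxc8 measured 2.09, 1.92, 2.83 and 3.84 TPM in saline tumors and 2.99, 3.52, 3.72 and 1.57 TPM in mAb-DXd/IMQ tumors. The lowest value of all was in mAb-DXd/IMQ tumor 4 and the highest in saline tumor 4. Hoxc9 measured 0.836, 1.38, 1.91 and 2.15 TPM in saline tumors and 3.65, 1.65, 2.49 and 1.25 TPM in mAb-DXd/IMQ tumors. The groups overlapped, with mAb-DXd/IMQ tumors 1 and 3 above the saline range. Hoxc4 and Hoxc5 had means of 1.23 ± 0.639 and 0.595 ± 0.316 TPM (SD, n = 8). Hoxc10 was uneven, with 31, 0, 6 and 35 counts in saline tumors and 11, 3, 0 and 1 counts in mAb-DXd/IMQ tumors, and it was not tested.

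The Hoxd cluster lies on chr2:74668310-74765142, and its 3 tested members sat side by side at groups 8 to 10. Hoxd8 was the highest gene outside the Hoxa cluster and measured 4.40, 7.78, 6.25 and 5.47 TPM in saline tumors and 5.29, 6.58, 9.55 and 5.49 TPM in mAb-DXd/IMQ tumors. The groups overlapped, and mAb-DXd/IMQ tumor 3 was highest. Hoxd9, a partner of Hoxa9 and Hoxb9 in the mammary gland, measured 2.91, 2.94, 1.35 and 0.945 TPM in saline tumors and 1.73, 1.68, 1.03 and 0.877 TPM in mAb-DXd/IMQ tumors. Saline tumors 1 and 2 stood above all others. Hoxd10 measured 0.625, 0.593, 0.639 and 1.36 TPM in saline tumors and 0.339, 0.736, 0.265 and 0.688 TPM in mAb-DXd/IMQ tumors. Saline tumor 4 stood apart from the other saline tumors, and the groups overlapped.

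Some of these levels are uncertain because exons of neighboring genes share bases with the Hox exons and the sources used here do not state whether the libraries kept the strand. In GENCODE M21, which held 39 of the 40 rows, exons on the opposite strand overlapped 5 Hoxa rows, 3 Hoxb rows and 2 Hoxd rows. Those on the same strand overlapped 3 Hoxa, 2 Hoxc and 4 Hoxd rows. The shares of exon bases on the opposite strand were 25.4% for Hoxa3, 16% for Hoxa4, 20.4% for Hoxa7 and 34.98% for Hoxa11. Hoxb2 shared 27.3% and Hoxb3 52.9% with Hoxb3os. Hoxd3 shared 62.4% of its exon bases with Hoxd4 and Gm28230 on the same strand, and Hoxd10 shared 5.73% with Gm28309. Hoxa5, Hoxa6, Hoxa10, Hoxb4, Hoxb6, Hoxb7, Hoxc6, Hoxc8, Hoxc9, Hoxd8 and Hoxd9 had no overlap.

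**Figure D2:**
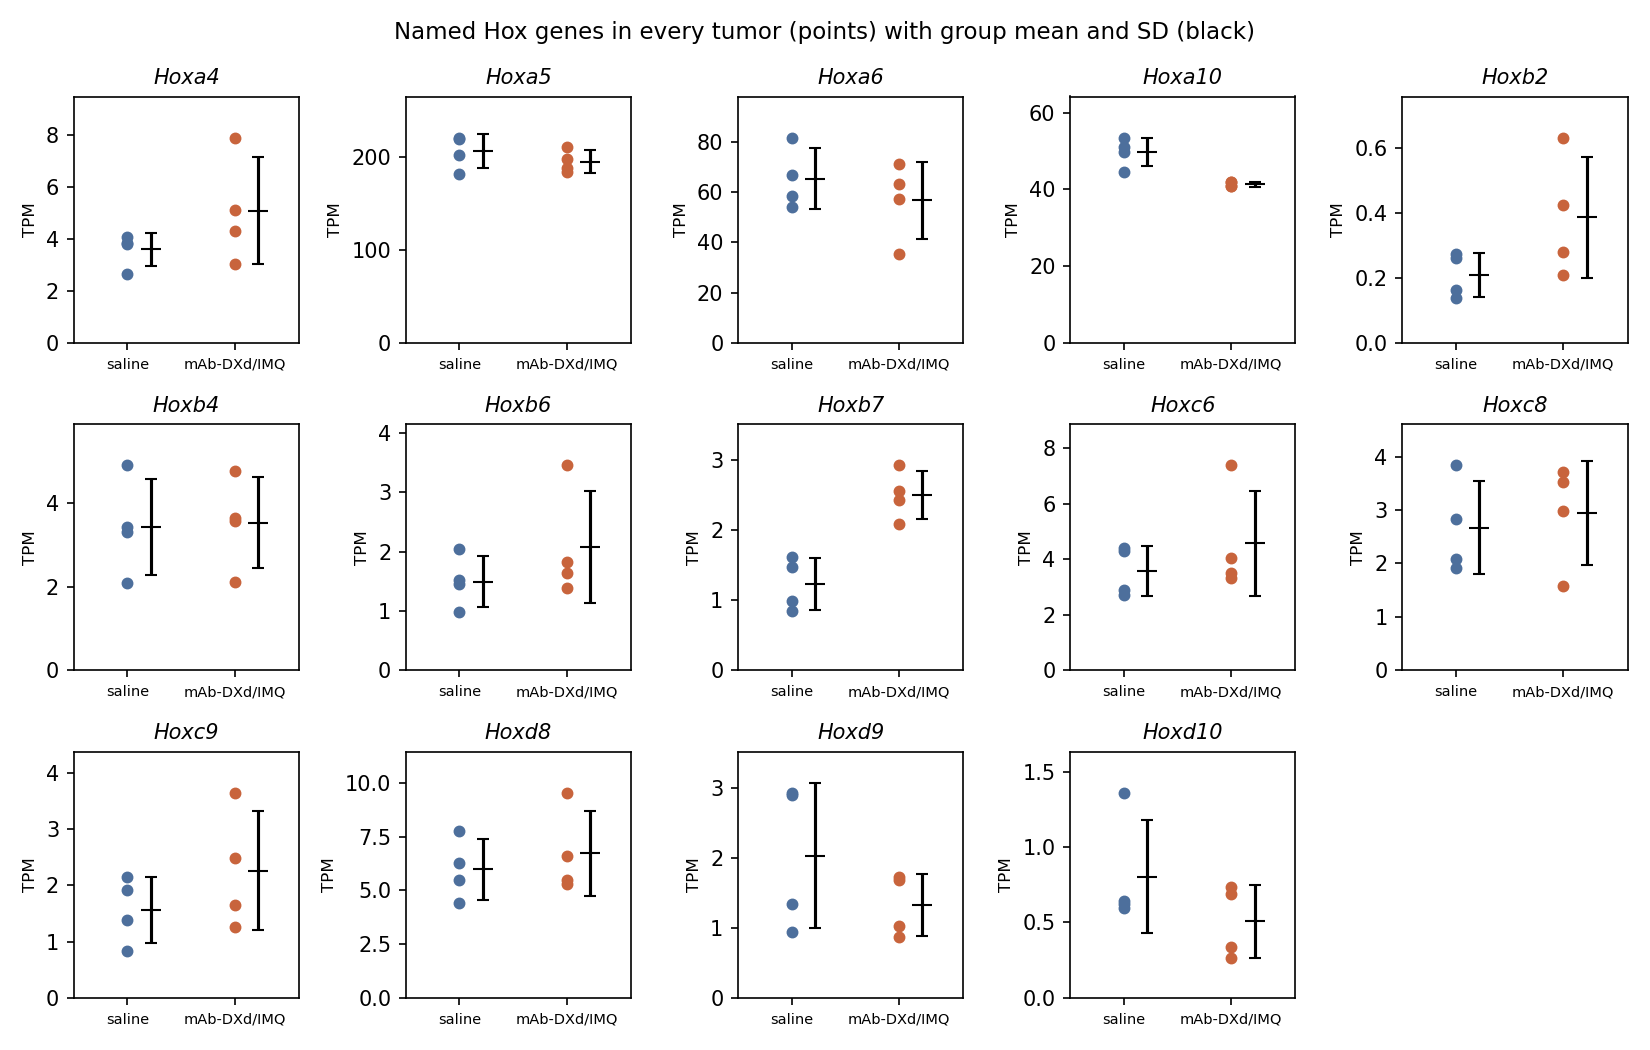
TPM of 14 Hox genes in each saline tumor (blue) and mAb-DXd/IMQ tumor (orange), with the group mean and SD (n = 4) in black beside the points. The Hoxb7 points of the mAb-DXd/IMQ group, from 2.09 to 2.93 TPM, lie above all saline points, from 0.854 to 1.63 TPM.

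The plot of 14 genes by tumor shows the 3 highest members of each cluster and further members with small p-values, and in 12 of its panels the groups overlapped. The remaining panels, in TPM, are Hoxa10 and Hoxb7. On the scale of the test only Hoxb7 of these genes stayed apart, and the groups did not overlap for 13.1% of all tested genes. Hoxa4 measured 3.79, 2.66, 3.83 and 4.08 TPM in saline tumors and 3.02, 4.31, 5.09 and 7.89 TPM in mAb-DXd/IMQ tumors. Only mAb-DXd/IMQ tumor 1 lay within the saline range.

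None of the 26 tested Hox genes passed the treatment comparison by edgeR's quasi-likelihood test, which asked for an FDR below 0.05 after Benjamini-Hochberg adjustment and a log2 fold change beyond 0.58 in either direction. Of all 18511 genes tested, 197 passed (1.06%), 101 of them higher in mAb-DXd/IMQ tumors. At an unadjusted p under 0.05 the count was 1 of 26 Hox genes (3.85%), beside 18.9% of all genes. The groups did not overlap for 1 of 26 Hox genes (3.85%), beside 13.1% of all genes. DESeq2's Wald test called 1 of the 26 Hox genes, Hoxb7, beside 787 of all 18511 genes. With limma-voom 0 Hox genes were called, beside 174 of all genes. The p-values measure the spread between these tumors, each from a separate mouse. In bulk tumors, fewer cells of a type and less RNA per cell cannot be told apart.

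**Figure D3:**
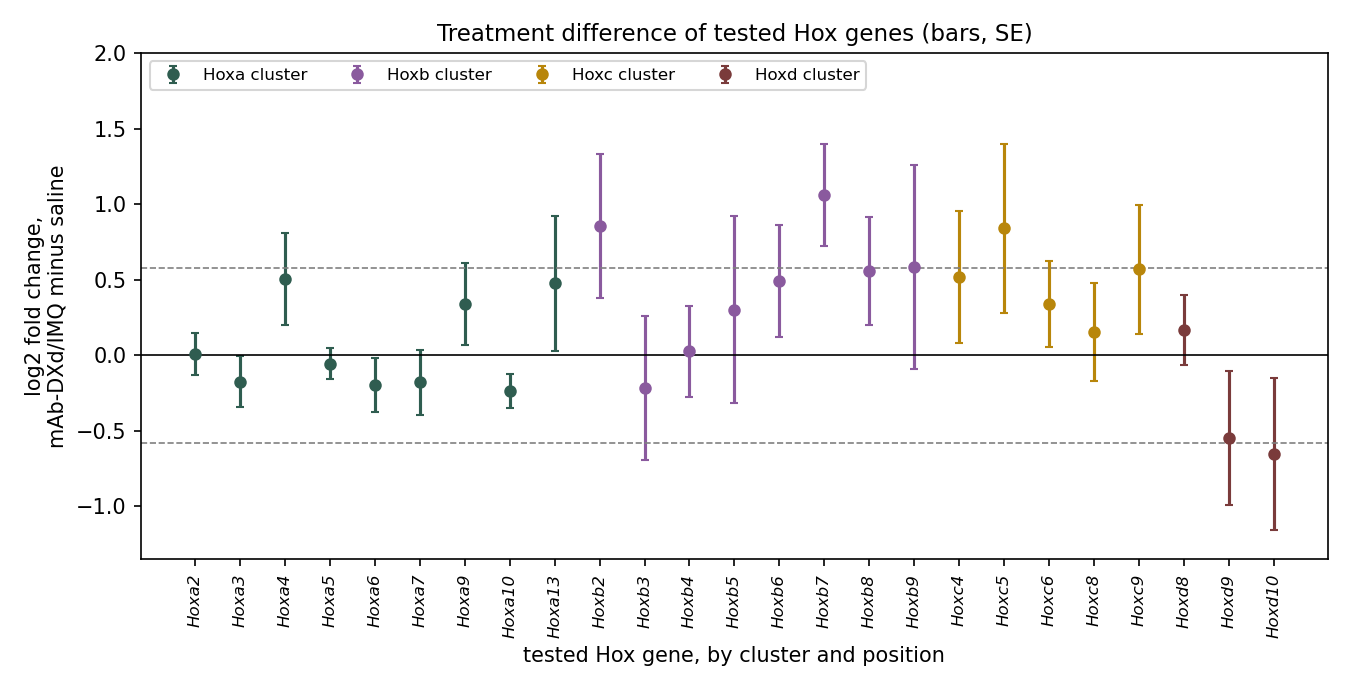
Log2 fold change of mAb-DXd/IMQ against saline for 25 of the 26 tested Hox genes in cluster order, with bars of ± SE (4 tumors per group) and colors by cluster. Dashed lines mark 0.58 and −0.58, and Hoxb7 at 1.06 ± 0.34 is the point farthest from 0.

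The largest difference was that of Hoxb7, with a log2 fold change of 1.06 ± 0.34 (SE, n = 4 per group) and all 4 mAb-DXd/IMQ tumors above all saline tumors. Its adjusted p of 0.1285 by edgeR's quasi-likelihood test with Benjamini-Hochberg adjustment did not pass. With DESeq2's Wald test the adjusted p was 0.0474, and over all 18 alternative settings it ran from 0.0474 to 0.315. Hoxa10 differed by −0.24 ± 0.11 (SE, n = 4 per group), with an adjusted p of 0.272 by the same edgeR test. The difference was 0.51 ± 0.30 for Hoxa4 and 0.86 ± 0.48 for Hoxb2 (SE, n = 4 per group), and without mAb-DXd/IMQ tumor 4 that of Hoxa4 was 0.21. The adjusted p by edgeR's quasi-likelihood test with Benjamini-Hochberg adjustment was 0.402 for Hoxa4 and 0.361 for Hoxb2.

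The most abundant member had a small and narrowly bounded difference. Hoxa5 differed by −0.06 ± 0.10 (SE, n = 4 per group), with an approximate 95% interval from −0.29 to 0.17. With the gene length spline its difference was −0.17, within that interval. The intervals of Hoxa2, Hoxa3 and Hoxa10 also lay within −0.58 and 0.58. For the remaining 22 tested members the interval reached past at least 1 of these limits, so a difference of that size was not excluded by these tumors. Of the named members not yet given, the log2 fold change was −0.20 for Hoxa6, 0.03 for Hoxb4, 0.49 for Hoxb6, 0.34 for Hoxc6, 0.15 for Hoxc8, 0.57 for Hoxc9, 0.17 for Hoxd8, −0.55 for Hoxd9 and −0.65 for Hoxd10. The direction for Hoxb4 depended on the setting and on single tumors, as it was −0.16 without saline tumor 1. Single tumors also moved the size of most of the others. The value was −0.01 for Hoxa5, 0.09 for Hoxc6 and 0.02 for Hoxd8 without mAb-DXd/IMQ tumor 3, −0.07 for Hoxa6 and 0.13 for Hoxc9 without mAb-DXd/IMQ tumor 1, and 0.13 for Hoxb6 without mAb-DXd/IMQ tumor 4. It was 0.03 for Hoxc8 and −0.31 for Hoxd9 without saline tumor 2, and −0.25 for Hoxd10 without saline tumor 4. Leaving out other tumors made the value larger in size. Without saline tumor 4 it was 0.39 for Hoxc8 and −0.10 for Hoxa5, and without saline tumor 2 it was 0.32 for Hoxd8. With the gene length spline the value was −0.33 for Hoxa6, 0.08 for Hoxc8 and 0.07 for Hoxd8.

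By cluster, the plot of fold changes shows Hoxa genes around 0 and most Hoxb and Hoxc genes above it. The median log2 fold change was −0.03 for 10 Hoxa genes, 5 above 0 and 5 below. It was 0.53 for 8 Hoxb genes, 7 above 0, and 0.52 for 5 Hoxc genes, all above 0. For the 3 tested Hoxd genes it was −0.55, with 1 above 0. Over all 26 genes the median was 0.31 with 18 above 0, and over all 18511 genes it was 0.02 with 52.6% above 0. By class, the median was 0.01 for anterior, 0.32 for central and 0.34 for posterior genes. These counts describe the members that passed the filter and carry no test.

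**Figure D4:**
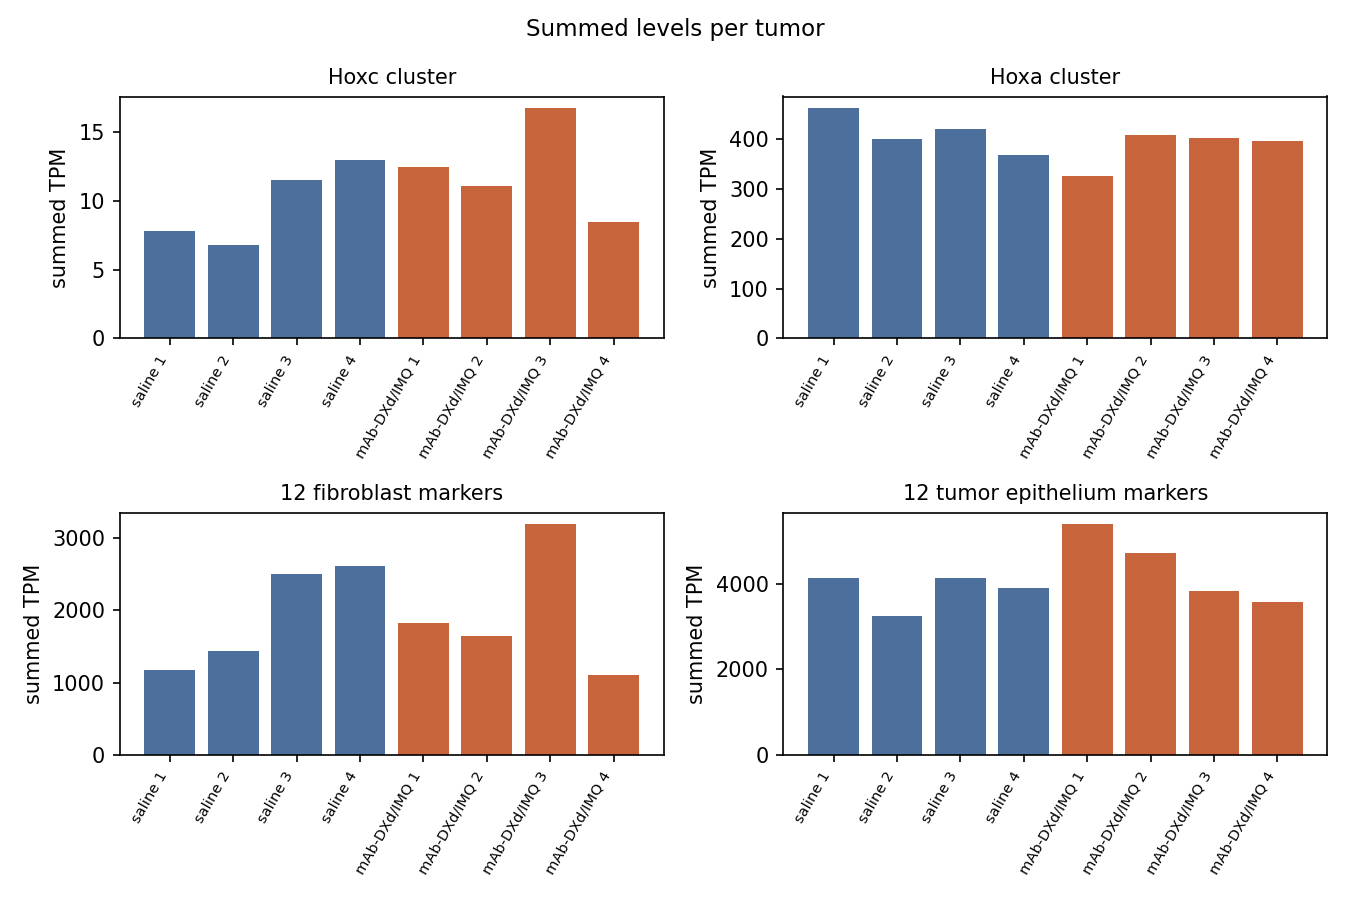
Summed TPM per tumor of the Hoxc cluster, the Hoxa cluster, 12 fibroblast markers and 12 tumor epithelium markers, as bars from 0 for saline tumors (blue) and mAb-DXd/IMQ tumors (orange). The Hoxc and fibroblast sums are both highest in mAb-DXd/IMQ tumor 3, at 16.8 and 3194 TPM.

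Summed levels differed between tumors of the same group. The Hoxc sum was 7.78, 6.81, 11.5 and 12.9 TPM in saline tumors and 12.5, 11.1, 16.8 and 8.46 TPM in mAb-DXd/IMQ tumors. In the bars of summed levels, fibroblast markers followed a like order. This pairing was not planned in advance, and the other marker sums ordered the tumors differently. Fibroblast markers are given here in every tumor. Their sum was 1172, 1435, 2502 and 2618 TPM in saline tumors and 1820, 1642, 3194 and 1108 TPM in mAb-DXd/IMQ tumors. The same 3 tumors were lowest in both sums (saline tumors 1 and 2 and mAb-DXd/IMQ tumor 4), and mAb-DXd/IMQ tumor 3 and saline tumor 4 were the highest and next highest in both. All 12 fibroblast markers were tested and 0 were called, beside 1.06% of all tested genes, with 6 log2 fold changes above 0 and 6 below and 2 at an unadjusted p under 0.05, beside 18.9%. Col1a1 was the most abundant at 1100 TPM, with Col1a2 at 305.5 TPM and Col3a1 at 290 TPM, and no defining marker was at 0. These collagens weigh most in the sum, and single markers differed in order. Pdgfrb was highest in mAb-DXd/IMQ tumor 3, at 65.1 TPM. Pdgfra was highest in saline tumor 2, at 29.6 TPM, and had 19.7 TPM in mAb-DXd/IMQ tumor 3. The part of fibroblasts in the Hoxc levels was not tested.

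The Hoxa sum was 461, 399, 419 and 368 TPM in saline tumors and 326, 407.5, 401 and 396 TPM in mAb-DXd/IMQ tumors. Of the Hoxa genes at 1 TPM or more, 5 were lowest in mAb-DXd/IMQ tumor 1 and 5 were highest in saline tumor 1. These ranks are in TPM, and mAb-DXd/IMQ tumor 1 had the lowest TMM factor, 0.9395. On the scale of the test Hoxa5 had 139 CPM there, within the 118 to 147 CPM of the other tumors. Hoxa2 had 19.4 CPM there and 16.8 CPM in mAb-DXd/IMQ tumor 3. The Hoxa sum was not computed on that scale. The sum of 12 epithelial markers was 4137, 3249, 4124 and 3896 TPM in saline tumors and 5389, 4718, 3840 and 3564 TPM in mAb-DXd/IMQ tumors. It was highest in mAb-DXd/IMQ tumor 1, where the Hoxa sum in TPM was lowest. Of these markers 11 were tested and 0 called (1.06% of all tested genes were), with 10 log2 fold changes above 0, a median of 0.30 and 2 at an unadjusted p under 0.05, beside 18.9% of all tested genes. Krt18 was the most abundant at 1325 TPM, and none was at 0 counts in all tumors. Their part in the Hoxa levels was not tested.

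The Hoxb sum was 7.48, 10.6, 9.08 and 6.79 TPM in saline tumors and 9.11, 10.5, 12.6 and 12.8 TPM in mAb-DXd/IMQ tumors. The Hoxb sums of mAb-DXd/IMQ tumors 3 and 4 were above all saline tumors, and the groups overlapped. The sum of 10 endothelial markers was 60.7, 169, 115 and 118 TPM in saline tumors and 151, 156, 162 and 138 TPM in mAb-DXd/IMQ tumors. It was highest in saline tumor 2 and lowest in saline tumor 1. All 10 were tested and 0 called (1.06% of all tested genes were), the most abundant was Cdh5 at 32.2 TPM, and none was at 0. Their log2 fold changes were all above 0, with a median of 0.49 and 3 at an unadjusted p under 0.05, beside 18.9% of all tested genes, and their part in the Hoxb levels was not tested. The Hoxd sum was 8.30, 11.4, 8.57 and 7.87 TPM in saline tumors and 7.38, 9.19, 10.9 and 7.36 TPM in mAb-DXd/IMQ tumors, with saline tumor 2 and mAb-DXd/IMQ tumor 3 highest. Members varied more between tumors in these clusters than in Hoxa. The median coefficient of variation of TPM over the members at 1 TPM or more was 20.4% for Hoxa, 38.6% for Hoxb, 41.0% for Hoxc and 37.5% for Hoxd. Fewer counts lay behind the lower genes. Counting alone gave 14.4% for Hoxb7 and 1.957% for Hoxa10, beside measured coefficients of 40.5% and 11.2%. For Hoxd8, the highest gene outside the Hoxa cluster, counting alone gave 5.78% beside 25.8% measured. The source of the remaining spread was not tested.

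**Figure D5:**
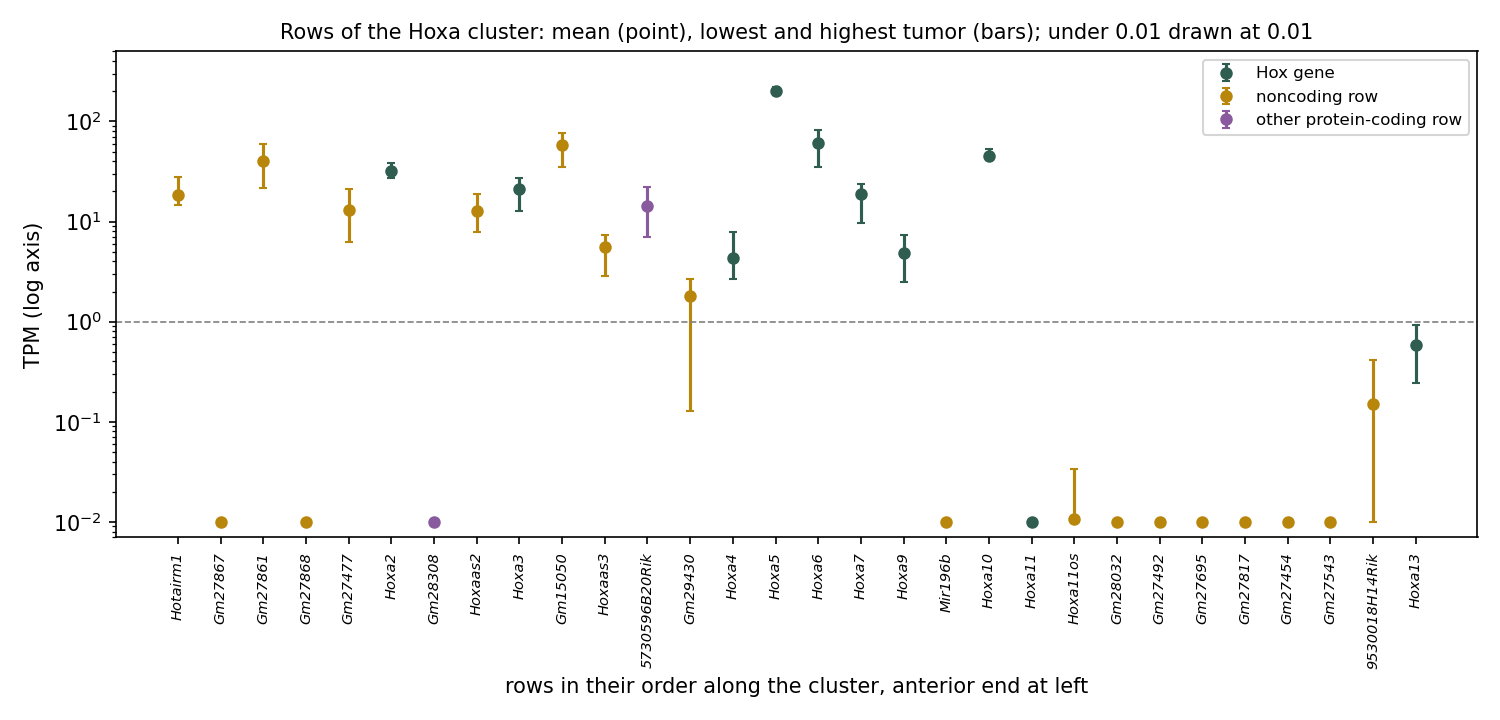
Mean TPM over the 8 tumors (points) with the lowest and highest tumor (bars) on a log axis, for 30 rows of the Hoxa cluster in their order along it. Hox genes are green, noncoding rows gold and other protein-coding rows purple; rows are placed by where they start, and the noncoding rows above 1 TPM all start left of Hoxa4.

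Noncoding transcripts of the Hoxa cluster were also expressed. Of 18 noncoding rows in the cluster, 7 had a mean of 1 TPM or more, and 9 had no count in any tumor. In the plot of rows along the cluster, all 7 started on the anterior side of Hoxa4. Hoxaas3 ran on across Hoxa4, Hoxa5 and Hoxa6 into Hoxa7, and Gm29430 ended inside Hoxa4. Gm15050 was the highest, at 71.5, 50.5, 57.2 and 61.6 TPM in saline tumors and 34.8, 63.5, 53.6 and 76.4 TPM in mAb-DXd/IMQ tumors. Like Hoxa6, it was lowest in mAb-DXd/IMQ tumor 1, and the groups overlapped. Hotairm1, an antisense RNA known from myeloid cells, had a mean of 18.4 TPM, from 14.6 TPM in saline tumor 4 to 27.8 TPM in mAb-DXd/IMQ tumor 4. Hoxaas2 had a mean of 12.8 TPM and Hoxaas3 of 5.60 TPM, and the short rows Gm27861 and Gm27477, of 214 and 143 bases, had 40.3 and 13.1 TPM. Gm27861 lies within the span of Hotairm1 on the same strand, and Gm27477 starts just past its end. Whether these short rows are transcripts separate from Hotairm1 was not tested. Relative to its mean, Gm29430 ranged most of these 7 rows, from 0.127 TPM in mAb-DXd/IMQ tumor 1 to 2.64 TPM in saline tumor 1. The protein-coding row 5730596B20Rik, in the same stretch but without a Hox name, had a mean of 14.3 TPM and was also lowest in mAb-DXd/IMQ tumor 1, at 6.96 TPM. These transcripts were singled out after their values were seen, and those that overlap Hox exons share the uncertainty of strand.

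Past Hoxa10 the noncoding rows had few counts or none. Hoxa11os, which runs antisense to Hoxa11, had 5 counts over the 8 tumors, and 9530018H14Rik, next to Hoxa13, had 26. Hotair, the RNA of the Hoxc cluster known for its link to Polycomb complexes in breast cancer, had 0 counts in all tumors, as did all 7 noncoding rows of that cluster. In the Hoxb cluster 1 of 9 noncoding rows reached 1 TPM (Gm11539, 2.43 TPM), and in the Hoxd cluster 1 of 9 (Hoxd3os1, 1.30 TPM). The hairpins Mir196b, Mir196a-2, Mir615 and Mir10b had 0 counts, Mir196a-1 had 2 and Mir10a had 1 in these poly(A) libraries, which are not made to capture small RNAs. In the treatment comparison 9 noncoding rows were tested, 7 of Hoxa, 1 of Hoxb and 1 of Hoxd, and 0 passed edgeR's quasi-likelihood test, beside 1.06% of all tested genes, with 0 at an unadjusted p under 0.05, beside 18.9%. With so few tested, a count of 0 calls says little.

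Hox proteins bind DNA with TALE homeodomain partners of the Pbx, Meis and Pknox families. Of 9 such genes 8 were tested, and the outcome of the test is given here for Pbx2 only. Pbx2 was the most abundant, with 49.7, 48.7, 45.4 and 46.7 TPM in saline tumors and 36.2, 42.9, 40.8 and 42.4 TPM in mAb-DXd/IMQ tumors. It was not called, although all mAb-DXd/IMQ tumors lay below the saline tumors in TPM.

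Upstream homeobox genes and cluster neighbors had few or no counts. Evx1, which lies beyond Hoxa13, had 17 counts over the 8 tumors, and Evx2 beside Hoxd13 had 0. The Cdx genes, which activate Hox clusters in the embryo, had 0 counts at Cdx1, Cdx2 and Cdx4.

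Trithorax and other activating chromatin factors keep Hox genes on, and Kmt2a (MLL) is the best known of them. All 22 genes of that list were tested, 1 fell and 0 were higher. Dpy30, a subunit of the Kmt2 complexes, was the most abundant, with 140, 166, 174 and 148 TPM in saline tumors and 141, 137, 159 and 171 TPM in mAb-DXd/IMQ tumors. The groups overlapped over most of their range. Mllt3, an elongation factor subunit that is a fusion partner of MLL in leukemia, measured 19.4, 18.7, 15.4 and 18.0 TPM in saline tumors and 11.9, 11.5, 9.88 and 10.1 TPM in mAb-DXd/IMQ tumors. All mAb-DXd/IMQ tumors were below all saline tumors. Mllt3 fell by 0.68 ± 0.14 log2 (SE, n = 4 per group), with an adjusted p of 0.0427 by edgeR's quasi-likelihood test with Benjamini-Hochberg adjustment. This call was lost without any of the tumors other than mAb-DXd/IMQ tumor 1, and it held in 8 of 18 alternative settings, with adjusted p up to 0.143. Aff4, Kdm6a and Kat6a passed the FDR but not the fold change, at −0.58, −0.53 and −0.57, and were picked out after their values were seen. Aff4 lay just inside that limit, and it was called in 5 of the alternative settings (RLE scaling, every gene with a count, DESeq2, limma-voom and without mAb-DXd/IMQ tumor 1). The median log2 fold change of the 22 genes was −0.20, with 17 below 0. In the summed TPM of the list mAb-DXd/IMQ tumor 1 stood apart, at 670 TPM beside 804 to 918 TPM in the other mAb-DXd/IMQ tumors and 877 to 945 TPM in saline tumors. Kmt2a was at 17.9 TPM there and at 36.5 to 40.9 TPM in the other 7 tumors, and the cause was not tested. Of the 22, 1 was called where 1.06% of all tested genes were, and 9 had an unadjusted p under 0.05 where 18.9% of all tested genes did.

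Polycomb proteins keep Hox genes off. All 31 genes of the Polycomb list were tested, 1 fell and 0 were higher. Rbbp7, a histone-binding subunit, was the most abundant, with 170, 161.5, 171.5 and 188 TPM in saline tumors and 213, 196, 148.5 and 144 TPM in mAb-DXd/IMQ tumors. Its mAb-DXd/IMQ tumors lay on both sides of the saline range. Rybp, a subunit of the noncanonical PRC1 complexes, measured 18.3, 16.4, 15.5 and 15.8 TPM in saline tumors and 9.03, 10.6, 12.3 and 9.80 TPM in mAb-DXd/IMQ tumors. The groups were apart in all 8 tumors. Rybp fell by 0.65 ± 0.11 log2 (SE, n = 4 per group), with an adjusted p of 0.0227 by edgeR's quasi-likelihood test with Benjamini-Hochberg adjustment. Its call was lost without saline tumor 2, 3 or 4 or without mAb-DXd/IMQ tumor 2 or 4, and it held in 11 of 18 alternative settings, with adjusted p up to 0.112. The catalytic subunit gene Ezh2, named here after its values were seen, had a mean of 28.2 TPM. The 31 genes had a median log2 fold change of −0.09, with 18 below 0. The 1 call among the 31 stood beside 1.06% of all tested genes, and 5 had an unadjusted p under 0.05 beside 18.9% of all tested genes.

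Retinoic acid induces Hox genes in order along the cluster. Of 18 genes that make, bind or degrade it, 17 were tested and 0 passed (1.06% of all tested genes did), with 8 log2 fold changes above 0 and 9 below and a median of −0.11. At an unadjusted p under 0.05 there were 7 of the 17, beside 18.9% of all tested genes. Crabp1, which binds retinoic acid in the cytoplasm, was the most abundant, with 89.97, 70.5, 118 and 201 TPM in saline tumors and 61.0, 101, 85.9 and 52.8 TPM in mAb-DXd/IMQ tumors. Saline tumor 4 was the highest, and the groups overlapped. Its log2 fold change was −0.67, and −0.28 without saline tumor 4.

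Leukocyte markers moved with the treatment comparison in which Mllt3 and Rybp fell. The sum of 14 leukocyte markers was 1176, 924, 695 and 889 TPM in saline tumors and 394, 449, 599 and 490 TPM in mAb-DXd/IMQ tumors, and the groups did not overlap. Of these markers 12 were tested and 2 fell, beside 1.06% of all tested genes called. Of the 12, 11 had log2 fold changes below 0, and 6 had an unadjusted p under 0.05, beside 18.9% of all tested genes. S100a9, a neutrophil gene, was the most abundant at 192.5 TPM, and none was at 0 counts, although the B-cell gene Ms4a1 had only 59 counts. Cd4 measured 3.27, 5.78, 5.01 and 6.44 TPM in saline tumors and 1.25, 1.51, 1.30 and 1.34 TPM in mAb-DXd/IMQ tumors, a fall of 1.91 ± 0.25 log2 (SE, n = 4 per group). Cd8a measured 22.9, 28.9, 29.8 and 26.4 TPM in saline tumors and 12.8, 11.8, 9.63 and 10.8 TPM in mAb-DXd/IMQ tumors, a fall of 1.22 ± 0.17 log2 (SE, n = 4 per group). Both had an adjusted p of 0.0201 by edgeR's quasi-likelihood test with Benjamini-Hochberg adjustment. Both calls were lost without saline tumor 3, saline tumor 4 or mAb-DXd/IMQ tumor 4. They were also lost with the replicate block, alone or together with the gene length spline, with folds about as large. The part of leukocytes in the values of Mllt3 and Rybp was not tested.

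Other tissues of the injection site were uneven between tumors. Of their markers 0 were called and 0 had an unadjusted p under 0.05, beside 1.06% and 18.9% of all tested genes. The sum of 12 epidermis markers was 340, 58.1, 241 and 166 TPM in saline tumors and 311, 799, 402 and 166 TPM in mAb-DXd/IMQ tumors, with 9 of 12 tested and Krt14 the most abundant at 252.5 TPM. All 9 tested had log2 fold changes above 0, with a median of 0.71. The sum of 10 skeletal muscle markers was 624, 59.5, 476 and 290 TPM in saline tumors and 416, 118, 301 and 345.5 TPM in mAb-DXd/IMQ tumors, with 9 tested, 3 log2 fold changes above 0 and 6 below, Acta1 the most abundant at 176 TPM and Tnnc2 at 0. The sum of 10 adipocyte markers ran from 19.6 TPM in mAb-DXd/IMQ tumor 3 to 54.8 TPM in saline tumor 4, with 9 tested and Fabp4 the most abundant at 13.5 TPM. All 9 of these were below 0, with a median of −0.63. The part of these tissues in the Hox levels was not tested.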

How the data were processed

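RNA from 8 tumors, 4 per group, was sequenced as poly(A) mRNA libraries on an Illumina HiSeq X instrument. The deposited values are raw, unnormalized counts of reads on each gene. The deposited gene length is another unit, the summed bases of all exons of a gene. The submitters' notes list HISAT2, HISAT, TopHat2 and the build mm39, but 98.3% of the 54409 genes shared with GENCODE M21 stood at its GRCm38 coordinates. The counting program and the strandedness are not given in the sources used here. The control is saline in the sample titles and the study's methods, and PBS in the treatment field. All count columns were used, and no tumor was left out of the main fit.

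TPM was computed from deposited counts and lengths. Counts were filtered with filterByExpr (minimum count 10, minimum total 15), scaled by TMM and compared with the quasi-likelihood F-test of edgeR, with treatment as the only term. Genes were called at an FDR under 0.05 (Benjamini-Hochberg, over all tested genes) and an absolute log2 fold change above 0.58, the thresholds of the study's methods. Standard errors were approximated from the F statistic, and 95% intervals took the t distribution with the degrees of freedom of that test. A gene counted as expressed at 1 TPM. Tumors that share a number are from separate mice, so no pairing was used. Each pair of tumors within a group was checked for duplicated libraries, with a chi-square per degree of freedom from 34.0 to 160 and no duplicate.

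Values in every tumor were given for the 3 members of each cluster with the highest mean TPM of at least 0.5, every called member and the 5 members with the smallest p, and for the called and the most abundant genes of the gene lists. Some genes that this rule names are withheld and not reported. Members and lists were chosen with earlier results of these data known. Alternatives were other scalings, filters and thresholds, DESeq2, limma-voom, a replicate block, a spline of gene length with 5 degrees of freedom, and leaving out each tumor. Tools were edgeR 4.0.16, DESeq2 1.42.0 and limma 3.58.1 in R 4.3.3, and pandas 2.3.3 and matplotlib 3.10.9 in Python 3.11.15. The main edgeR fit was tried on simulated counts, and the other steps were not.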

Additional observations from a re-analysis of the deposited data

Results flagged for a closer look

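In 56 groups of 4 tumors, 2 held a tumor far from the other 3, where chance alone gives about 2.8. Hoxd10 in saline tumors was flagged because saline tumor 4 had 1.36 TPM and the others 0.593 to 0.639 TPM, a gap of 0.9398 of the group's range. The summed TPM of the Hoxa cluster in mAb-DXd/IMQ tumors was flagged because tumor 1 had 326 TPM and the others 396 to 407.5 TPM, a gap of 0.8557 of the range. This flag holds for TPM only, since the Hoxa sum was not computed on the scale of the test. The cause was not tested for either.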

How the results depend on the processing

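The count of called Hox genes was 0 in every setting except DESeq2's Wald test, which gave 1 (Hoxb7), and it was 0 to 0 when each tumor was left out. The count of all called genes, 197 in the comparison as reported, was 358 with every gene that had a count, 787 with DESeq2, 122 with the gene length spline, 14 with the replicate block, 14 with the spline and the block together, and 10 to 203 when each tumor was left out. Upper-quartile scaling gave 218, 145 of them higher. The count of called cofactor and regulator genes, 3 as reported (Rybp, Mllt3 and 1 that is not named here), was 6 with DESeq2, 6 with the FDR alone, 1 with the spline, 0 with the block, 0 with both, and 0 to 4 when each tumor was left out. Hoxb7 with DESeq2 kept its log2 fold change of 1.06. The cause was not tested.

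Among the genes followed singly, reversed directions were those of Hoxb4, Rbbp7 and Dpy30, none of them called in any setting. Hoxb4, 0.0273 as reported, was −0.0788 with the spline, −0.0274 with the spline and the block, −0.1608 without saline tumor 1 and −0.0877 without mAb-DXd/IMQ tumor 3, and leaving out each tumor gave −0.1608 to 0.2522. Rbbp7, 0.0618 as reported, was −0.0121 with the spline, −0.0593 with the spline and the block and −0.1198 to 0.1797 without each tumor, below 0 only without mAb-DXd/IMQ tumor 1. Dpy30, −0.0268 as reported, was 0.0219 with upper-quartile scaling, 0.0044 with total counts, and −0.0958 to 0.0298 without each tumor, above 0 without saline tumor 2 or 3 or mAb-DXd/IMQ tumor 2 or 3. The cause was not tested. The remaining tested Hox genes were not followed singly, and some of them turned as well. The count of the 26 above 0, 18 as reported, was 17 with every gene that had a count and 16 without saline tumor 4, where Hoxb4 stayed above 0.

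The count of Hox genes at 1 TPM or more, 19, was 22 at 0.5 TPM, 13 at 2 TPM, 13 when every tumor had to reach 1 TPM, and 19 without any single tumor. The replicate block removed the calls of Rybp, Mllt3, Cd4 and Cd8a, but their log2 fold changes stayed, at −0.6464, −0.6963, −1.8662 and −1.2371 against −0.6467, −0.6833, −1.9088 and −1.2222 as reported. Same-numbered tumors shared only a number, with correlations of −0.170, −0.0546, 0.0794 and −0.0672, and only saline tumor 3 correlated best with its own number. Depth limits the low members: a gene under 3 counts in a tumor cannot be told from 0, and 14 of 40 rows had too few counts to test.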
